A study of Homo sapiens with 32 samples.

Results

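Transcript levels of the human esophageal epithelial line EPC2 were compared between mature spheroids and the flat cultures from which they were seeded, to find which genes ended above, below or back at the monolayer level. The comparison used 17 of the 32 libraries of the deposited table. Of these, 10 came from monolayers collected at day 0 (D0), before seeding, and 7 came from spheroids collected at day 11 (D11) that received no cytokine. The 9 libraries from spheroids at day 3 (D3) served as the point in between, and the 6 D11 libraries treated with IL-13 were not used. EPC2 is a single line of wild type esophageal epithelial cells immortalised with human telomerase (hTERT), so the results describe 1 line. For the spheroids, 40000 cells were seeded in a 20 µl droplet of Matrigel, a basement membrane extract, and fed keratinocyte serum-free medium with 0.6 mM CaCl2. The kinase inhibitor Y27632 was present at 10 µM until the first change of medium at D3, so the D3 spheroids had grown with it and the D11 spheroids had been without it since. The labels give the medium of the spheroids only, so growth in 3 dimensions, Matrigel, calcium and time in culture cannot be told apart in this comparison. Libraries came from 2 independent experiments, labelled batch 1 (5 monolayer, 4 D3 and 4 D11 libraries) and batch 2 (5 monolayer, 5 D3 and 3 D11 libraries). The labels do not say whether libraries of 1 experiment came from separate cultures, so p-values measure the spread between these libraries, which may be technical.

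The esophagus is lined by a stratified squamous epithelium. Its basal cells divide, hold on to a basement membrane through integrins and laminin and express the keratins KRT5 and KRT14. Cells that leave the basal layer stop dividing, switch keratins, build desmosomes and load small proline-rich, late cornified envelope and S100 proteins, which transglutaminases cross-link under the cell membrane. Kallikrein proteases and their inhibitors control shedding at the surface. Flat culture keeps most cells in the dividing, matrix-bound state, and calcium and cell crowding are known triggers of the switch.

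Values are in TPM, in which reads are divided by transcript length and by the library total. They do not keep the number of reads, so no interval for counting error can be given. TPM values of all genes add up to the same total, so a rise of abundant transcripts lowers the values of others. A level is given as the lowest, highest and median library of a group. A net change, or "changed by" in what follows, is the D11 level minus the monolayer level in log2(TPM + 1), with batch as a term, followed by its standard error (SE), and for low genes this scale understates it. Adjusted p-values come from limma with Benjamini-Hochberg adjustment over all 11692 genes tested, of 19345 symbols in the table. A gene ended "above" or "below" where the adjusted p was under 0.05 and the change reached 2-fold, which is 1 on the log2 scale. A gene was "level" where the 95% interval of its net change lay within 2-fold, and "undecided" otherwise. A level gene was "back" where it had differed at least 2-fold from monolayers at D3, with an adjusted p under 0.05. "Rose" and "fell" refer to the adjusted p alone. A gene near 0 in monolayers enters the test only through the D11 libraries, where it is high, so counts and medians over the tested members of a list are descriptions. In RNA from whole cultures, fewer cells of a type and less RNA per cell cannot be told apart.

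The 17 libraries lay apart by group on the first principal component, which held 84.6% of the variance, and the second, with 8.8%, separated the monolayers of the 2 batches, while D11 libraries lay near its origin. Transcripts encoded by mitochondrial DNA took 44.8 to 50.1% of the TPM in monolayers (median 48.5), 39.1 to 57.1% at D3 and 14.8 to 27.9% at D11 (median 22.3). The share of keratin transcripts was 2.74 to 3.56%, 7.48 to 12.7% and 12.7 to 19.0% in the same order. The D3 libraries formed 2 sets that did not follow the batch labels. D3 libraries 2, 7, 8 and 9 held 53.1 to 57.1% mitochondrial transcripts, and D3 libraries 1, 3, 4, 5 and 6 held 39.1 to 45.8%. Library 4 carries the label of batch 1 and library 7 that of batch 2, against the rest of their sets. The basal squamous markers KRT5, KRT14, KRT15, TP63 and SOX2 were detected in every library. The esophageal suprabasal markers KRT4 and CRNN were listed at 0 in each of the 10 monolayers, KRT13 lay at 0 to 0.4 TPM there, and all 3 were found in every D3 and D11 library. Markers of other cell types were few: the filter on low values was passed by 5 of 24 genes on the columnar, goblet and ciliated list, 2 of 12 on the fibroblast list, 3 of 18 on the immune and endothelial list and 2 of 9 on the melanocyte and neural crest list.

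Mature spheroids ended far from the monolayer, with more genes below than above it. Of 11692 genes tested, 2430 (20.8%) were higher and 7722 (66.0%) lower in D11 spheroids. At 2-fold, 1022 genes (8.74%) ended above and 2954 (25.3%) below the monolayer level, 6585 (56.3%) were level and 1131 were undecided. For 7022 genes no D11 library lay within the monolayer range (60.1%), and of these 1539 were higher and 5483 lower at D11. Genes that ended above took 5.76 to 6.36% of the TPM in monolayers, 10.7 to 20.7% at D3 and 34.5 to 47.7% at D11. Those that ended below took 50.9 to 53.4%, 34.9 to 49.9% and 13.0 to 21.5%. These ranges describe the classes, since the same values chose them. The rises reached further than the falls: 103 genes ended at least 32-fold above on this scale and 10 at least 32-fold below. Of the genes that ended above, 389 had a monolayer median under 1 TPM, and of those that ended below, 592 had a D11 median under 1 TPM.

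**Figure D1:**
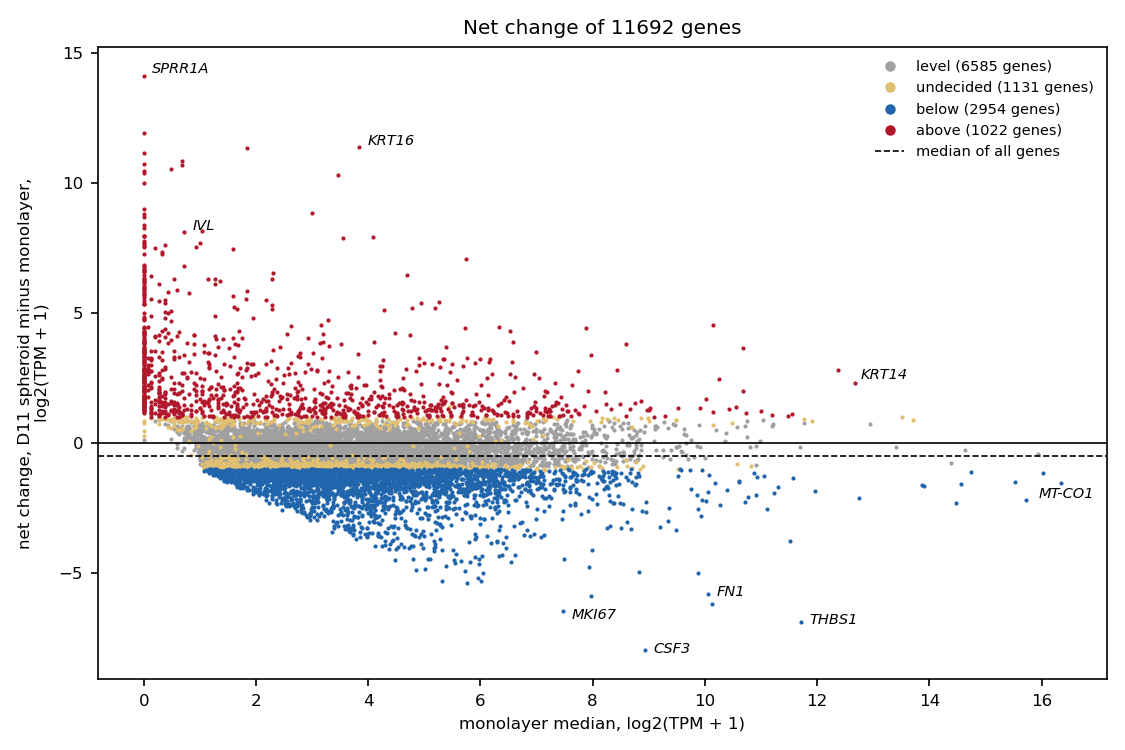
Net change of each of the 11692 genes tested (vertical axis, D11 spheroid minus monolayer in log2(TPM + 1)) against its monolayer median (horizontal axis, log2(TPM + 1)), 1 point per gene, coloured by class. The largest rises start from genes near 0 in monolayers, the dashed line marks the median of all genes at -0.50, and the lower edge on the left is the floor of log2(TPM + 1).

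The split between above and below depended on how libraries were scaled. The median net change of all genes was -0.50 on the log2 scale as deposited. Scaling by the median of ratios moved that median by 0.50, and 4780 genes were then higher and 4865 lower, with 1729 above, 1328 below and 7637 level. Quantile normalization moved it by 0.40, with 4209 higher and 5397 lower. Removing the mitochondrially encoded genes before scaling moved it by -0.53, with 1347 higher and 9424 lower of 11679 genes. Of the genes called, 23.9% were higher as deposited, 49.6% and 43.8% under the first 2 scalings and 12.5% under the last. Between the values as deposited and the median of ratios, 1071 genes were called in opposite directions and 7295 in the same one. Under all 4 scalings 720 genes ended above, 1312 below and 2322 level. Each median of a list is therefore to be read beside that of all genes. Each count of members is to be read beside the shares over all genes as deposited. These were 20.8% higher, 66.0% lower, 8.74% above, 25.3% below and 56.3% level. A direction that turned under a scaling is named beside the gene.

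Genes of the cornified envelope, the cross-linked protein shell of terminally differentiated squamous cells, ended above in each case that was tested. Of 45 members, 41 were tested, 41 of which rose, 0 fell and 0 missed the threshold, and all 41 ended above the monolayer level, against 8.74% of all genes. Their median net change was 5.83 as deposited and 5.83 to 6.18 under the other 3 scalings, and 4.96 in batch 1 and 6.28 in batch 2. The summed level of all 45 members in the table was 212 to 414 TPM in monolayers, 909 to 10966 TPM at D3 and 48475 to 81589 TPM at D11. The largest net rise of all genes was in SPRR1A, a small proline-rich envelope precursor that measured 0 to 5.3 TPM (median 0) in monolayers, 191 to 4769 TPM (median 3931) at D3 and 19768 to 28092 TPM (median 26026) at D11. Its net change was 14.13 ± 0.34 (adjusted p = 1.5e-16), and every D11 library lay above every D3 library, which in turn lay above every monolayer library. At D3 the libraries 2, 7, 8 and 9 held the low values, and the lowest of the other 5 was 3931 TPM. SPRR3, the small proline-rich gene typical of esophagus, measured 0 to 0.7 TPM (median 0) in monolayers, 18.2 to 432 TPM (median 261) at D3 and 3395 to 5101 TPM (median 4239) at D11. SPRR3 did not overlap between monolayers and D11 and changed by 11.93 ± 0.11 (adjusted p = 3.1e-22). Involucrin (IVL), an early scaffold of the envelope, lay at 0 to 1.4 TPM (median 0.65) in monolayers, 3.6 to 43 TPM (median 30.2) at D3 and 336 to 578 TPM (median 466) at D11. IVL stood higher in each D11 library than in each monolayer and changed by 8.11 ± 0.15 (adjusted p = 3.4e-18). Neither gene overlapped between the 3 groups. The late cornified envelope gene LCE3D lay at 0 to 3.3 TPM (median 0.6) in monolayers, 0 to 112 TPM (median 52.9) at D3 and 1584 to 7099 TPM (median 2218) at D11. LCE3D was higher in all 7 D11 libraries than in any monolayer and changed by 10.85 ± 0.3 (adjusted p = 1.1e-15). LCE3E was listed at 0 in all 10 monolayer libraries and lay at 0 to 31.6 TPM (median 16.2) at D3 and 1000.5 to 3487 TPM (median 1286) at D11. CRCT1, a cysteine-rich gene beside the LCE genes, lay at 0 to 0.5 TPM (median 0) in monolayers, 2.5 to 114 TPM (median 51.1) at D3 and 1318 to 5302 TPM (median 1826) at D11. CRCT1 did not overlap between monolayers and D11 and changed by 11.17 ± 0.2 (adjusted p = 3.5e-18). For these 3 genes the D11 libraries of batch 2 were the highest, and the change was larger there than in batch 1 for CRCT1 (10.52 and 11.94, adjusted p of the difference 3.2e-05). Suprabasin (SBSN), a secreted protein of differentiating keratinocytes, measured 0 to 0.4 TPM (median 0) in monolayers, 5.4 to 182 TPM (median 134) at D3 and 1176 to 1734 TPM (median 1533) at D11. SBSN stood higher in each D11 library than in each monolayer and changed by 10.46 ± 0.076 (adjusted p = 2.4e-23). Reads of SPRR, LCE and other close paralogs may have been split between copies, so the values of single members are uncertain.

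**Figure D2:**
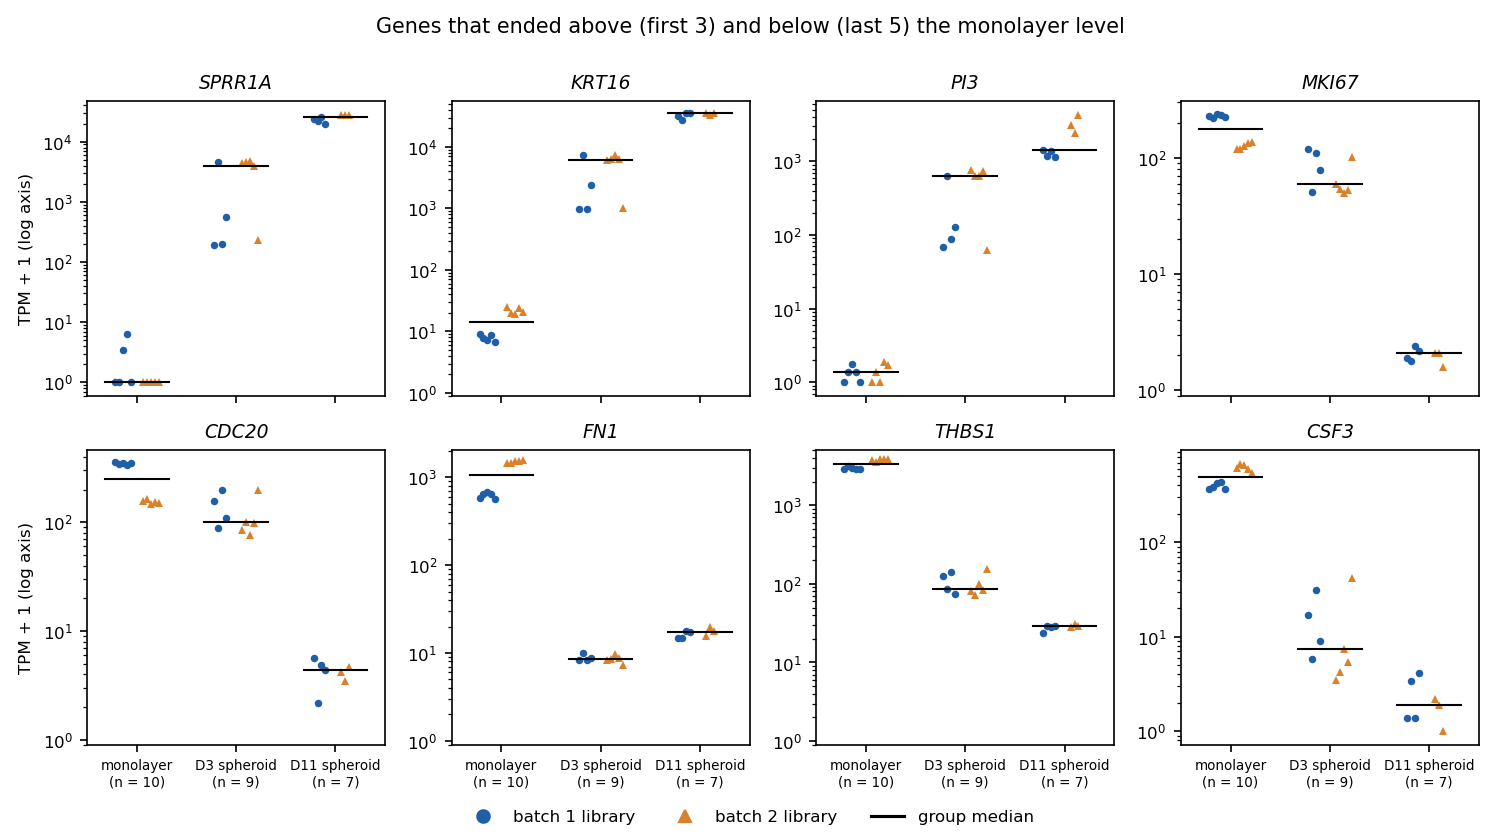
TPM + 1 on a log axis for 3 genes that ended above and 5 that ended below the monolayer level, 1 point per library (circles for batch 1, triangles for batch 2), with the median of each group as a bar. SPRR1A, KRT16 and PI3 climb from monolayer to D3 to D11, the medians of MKI67, CDC20, THBS1 and CSF3 drop at both steps, and FN1 is lowest at D3.

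The promoters of SPRR1A and SPRR3 are shown because these were the largest rises. Each sequence is the 250 bases before the RefSeq start (GRCh38.p14), read on the plus strand. Capitals mark AP-1 sites (TGANTCA, which reads the same on both strands) and TATA boxes (TATAAA, both strands searched), and the 2 motifs do not overlap here.
SPRR1A, chr1:152983831-152984080: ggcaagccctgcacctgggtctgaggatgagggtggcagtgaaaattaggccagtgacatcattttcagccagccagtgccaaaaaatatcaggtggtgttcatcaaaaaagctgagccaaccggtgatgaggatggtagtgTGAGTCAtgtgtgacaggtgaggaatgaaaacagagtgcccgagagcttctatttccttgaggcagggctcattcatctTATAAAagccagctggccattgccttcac
SPRR3, chr1:153001499-153001748: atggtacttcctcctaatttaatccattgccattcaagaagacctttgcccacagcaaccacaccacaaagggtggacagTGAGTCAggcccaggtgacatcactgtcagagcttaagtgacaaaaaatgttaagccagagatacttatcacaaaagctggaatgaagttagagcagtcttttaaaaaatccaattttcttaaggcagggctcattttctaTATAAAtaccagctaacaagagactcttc
The AP-1 site lay 108 bases before the start in SPRR1A and 170 bases before it in SPRR3, and the TATA box 29 bases before the start in both. A promoter was found for 34 of the 41 cornified envelope genes tested. An AP-1 site was present in 15 of these (44.1%) and a TATA box in 20 (58.8%), against 6.60% and 11.1% of all 27303 promoters of that length. Of the 9203 promoters found for genes tested, 4.27% held an AP-1 site and 5.74% a TATA box. These matches are letters in a window, not measured binding.

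Many of these genes sit side by side. The epidermal differentiation complex, taken from S100A10 to S100A1 on chromosome 1, 151982915 to 153632039 (hg38, GENCODE release 29), held 46 tested genes. Of them 39 ended above, 4 were level, 2 undecided and 1, S100A3, below. Under all 4 scalings 37 ended above. The exception, S100A3, encodes a calcium-binding protein and lay at 32.2 to 44.2 TPM (median 39) in monolayers and 8.2 to 23.2 TPM (median 16.4) at D3, and was listed at 0 in all 7 D11 libraries. S100A8 of the same complex, at chromosome 1, 153390032 to 153391188, encodes a subunit of calprotectin and went the other way, with 0 to 11.7 TPM (median 2.6) in monolayers, 263 to 3186 TPM (median 2458) at D3 and 8537 to 11361 TPM (median 9550) at D11. S100A8 was higher in all 7 D11 libraries than in any monolayer and changed by 11.34 ± 0.35 (adjusted p = 4.7e-15).

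Suprabasal keratins and the regulators of squamous differentiation also ended high. Of 28 members, 27 were tested, 25 of which rose, 1 fell and 1 missed the threshold, and 24 ended above. The median net change was 3.65 as deposited and 3.69 to 4.21 under the other 3 scalings. KRT16, a keratin of wounded and hyperproliferative squamous epithelium on chromosome 17, 41609778 to 41615899, measured 5.8 to 23.6 TPM (median 13.3) in monolayers, 971 to 7458 TPM (median 6154) at D3 and 27752 to 35876 TPM (median 35069) at D11. Its net change was 11.38 ± 0.18 (adjusted p = 5.4e-19), 12.00 in batch 1 and 10.65 in batch 2. Transglutaminase 1 (TGM1), the enzyme that cross-links the envelope, lay at 0.4 to 1.4 TPM (median 0.9) in monolayers, 22.4 to 119.5 TPM (median 103) at D3 and 287 to 425 TPM (median 352) at D11. TGM1 did not overlap between monolayers and D11 and changed by 7.54 ± 0.11 (adjusted p = 2.0e-19). Cornulin (CRNN), an esophageal envelope-associated protein, was listed at 0 in all 10 monolayers and lay at 2.1 to 27.8 TPM (median 14.3) at D3 and 129 to 289 TPM (median 212) at D11. The member that fell was EMP1, a squamous membrane protein, at 63 to 92.7 TPM (median 74.6) in monolayers and 40.3 to 50.6 TPM (median 46) at D11. EMP1 stood lower in each D11 library than in each monolayer and changed by -0.74 ± 0.042 (adjusted p = 1.8e-11), a change within 2-fold. Over the 4 scalings the change was -1.31 to -0.14.

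The esophageal keratins KRT4 and KRT13 ended above the monolayer but below their D3 level. KRT4 was listed at 0 in all 10 monolayer libraries, lay at 16 to 128 TPM (median 81.6) at D3 and at 12.3 to 17.7 TPM (median 16.3) at D11. KRT13, its type I partner, measured 0 to 0.4 TPM (median 0) in monolayers, 24.7 to 105 TPM (median 85.6) at D3 and 8.3 to 16.2 TPM (median 11.2) at D11. KRT13 was higher in all 7 D11 libraries than in any monolayer and changed by 3.46 ± 0.12 (adjusted p = 2.1e-14). At D3 its change from monolayer was 5.72. Changes at D3 and D11 share the monolayer libraries and stand side by side here, with no test of the step from D3 to D11. KRT13 did not overlap between D3 and D11 libraries, whereas the lowest D3 library of KRT4 lay within the D11 range. Of the basal keratins, KRT14 lay at 5683 to 7289.7 TPM (median 6532) in monolayers, 25618 to 39066 TPM (median 34568) at D3 and 24467 to 38298 TPM (median 33001) at D11. KRT14 did not overlap between monolayers and D11 and changed by 2.31 ± 0.072 (adjusted p = 4.9e-15), and its D3 and D11 libraries overlapped over most of their range. KRT5, its partner, lay at 12359.6 to 16429 TPM (median 13451) in monolayers, 30269 to 44331 TPM (median 38964) at D3 and 21389 to 32009 TPM (median 25030.4) at D11. Its net rise of 0.91 ± 0.085 (adjusted p = 1.9e-08) stayed undecided against 2-fold, with a 95% interval of 0.72 to 1.08. KRT15, which marks the resting basal cells of esophagus, peaked at D3, with 16.9 to 45 TPM (median 25.8) in monolayers, 369 to 481 TPM (median 428) at D3 and 78 to 134 TPM (median 117) at D11. KRT15 stood higher in each D11 library than in each monolayer and changed by 1.90 ± 0.11 (adjusted p = 2.3e-11). Every D3 library of KRT15 lay above every D11 library, and every D11 library above every monolayer library.

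Proteases and protease inhibitors of squamous epithelium followed the envelope genes. Of 30 members, 28 were tested, 26 of which rose, 0 fell and 2 missed the threshold, and 25 ended above, with a median net change of 5.02 as deposited and 5.14 to 5.34 under the other 3 scalings. All 11 kallikrein genes tested between KLK1 and KLK14 on chromosome 19, 50819148 to 51084245, ended above under all 4 scalings. SLPI, a secreted inhibitor of leukocyte elastase, measured 0 to 2.3 TPM (median 0.6) in monolayers, 25.1 to 287 TPM (median 225) at D3 and 2200.5 to 3029.6 TPM (median 2473) at D11. SLPI was higher in all 7 D11 libraries than in any monolayer and changed by 10.68 ± 0.16 (adjusted p = 2.1e-19). Elafin (PI3), another elastase inhibitor, lay at 0 to 0.9 TPM (median 0.4) in monolayers, 62.5 to 767 TPM (median 633) at D3 and 1142 to 4308 TPM (median 1442) at D11. PI3 did not overlap between monolayers and D11 and changed by 10.53 ± 0.22 (adjusted p = 2.6e-17). Both were near 0 in monolayers and did not overlap between groups from monolayer to D11. SPINK7, an esophageal kallikrein inhibitor, lay at 0 to 0.4 TPM (median 0) in monolayers, 0 to 3.6 TPM (median 1.7) at D3 and 165 to 387 TPM (median 248) at D11. SPINK7 stood higher in each D11 library than in each monolayer and changed by 7.95 ± 0.11 (adjusted p = 6.8e-20). Its D3 libraries overlapped the monolayers, and every D11 library lay above both.

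Among 27 desmosome and tight junction genes, 24 were tested, 16 of which rose, 8 fell and 0 missed the threshold, with 14 above, 3 below, 6 level and 1 undecided (median 1.82 as deposited and 1.32 to 2.25 under the other 3 scalings). DSG1, the desmosomal cadherin of upper layers, was listed at 0 in all 10 monolayers and lay at 2.2 to 26.4 TPM (median 19.5) at D3 and 137 to 224 TPM (median 194) at D11. Claudin 17 (CLDN17) lay at 0 to 1 TPM (median 0) in monolayers, 0 to 12.6 TPM (median 9.2) at D3 and 98.3 to 138 TPM (median 122) at D11. CLDN17 was higher in all 7 D11 libraries than in any monolayer and changed by 6.65 ± 0.15 (adjusted p = 4.9e-17). The falls were smaller than these. CDH3, the classical cadherin of basal cells, lay at 51.8 to 95.5 TPM (median 73.2) in monolayers and 30.8 to 34.3 TPM (median 33.1) at D11. CDH3 did not overlap between monolayers and D11 and changed by -1.05 ± 0.095 (adjusted p = 1.1e-08), and by -0.46 after the median of ratios. CLDN23 lay at 1.4 to 7.2 TPM (median 4.35) in monolayers and 0 to 2.2 TPM (median 1) at D11, with overlapping libraries and a log2 change of -1.25 ± 0.21 (adjusted p = 2.6e-05). The 2 members counted as back were DSG2 and CLDN12.

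Enzymes of barrier lipids split by member. Of 26 members, 23 were tested, 15 of which rose, 8 fell and 0 missed the threshold, with 10 above, 2 below, 9 level and 2 undecided (median 0.70 as deposited and 0.19 to 1.24 under the other 3 scalings). The lipoxygenase ALOX12B, which oxidises the linoleate of barrier ceramides, lay at 0 to 1 TPM (median 0.35) in monolayers, 0.7 to 12.8 TPM (median 8.3) at D3 and 57.3 to 96.4 TPM (median 67.8) at D11. ALOX12B stood higher in each D11 library than in each monolayer and changed by 5.81 ± 0.15 (adjusted p = 5.5e-16). SDR9C7, which acts after it in the same route, lay at 0 to 0.2 TPM (median 0) in monolayers, 0 to 5.2 TPM (median 3.1) at D3 and 39.5 to 58.4 TPM (median 44.7) at D11. SDR9C7 was higher in all 7 D11 libraries than in any monolayer and changed by 5.46 ± 0.071 (adjusted p = 4.2e-20). The desaturase FADS2 fell, at 67.2 to 106 TPM (median 87.1) in monolayers and 3.9 to 8.5 TPM (median 7) at D11. FADS2 did not overlap between monolayers and D11 and changed by -3.61 ± 0.05 (adjusted p = 9.3e-20).

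**Figure D3:**
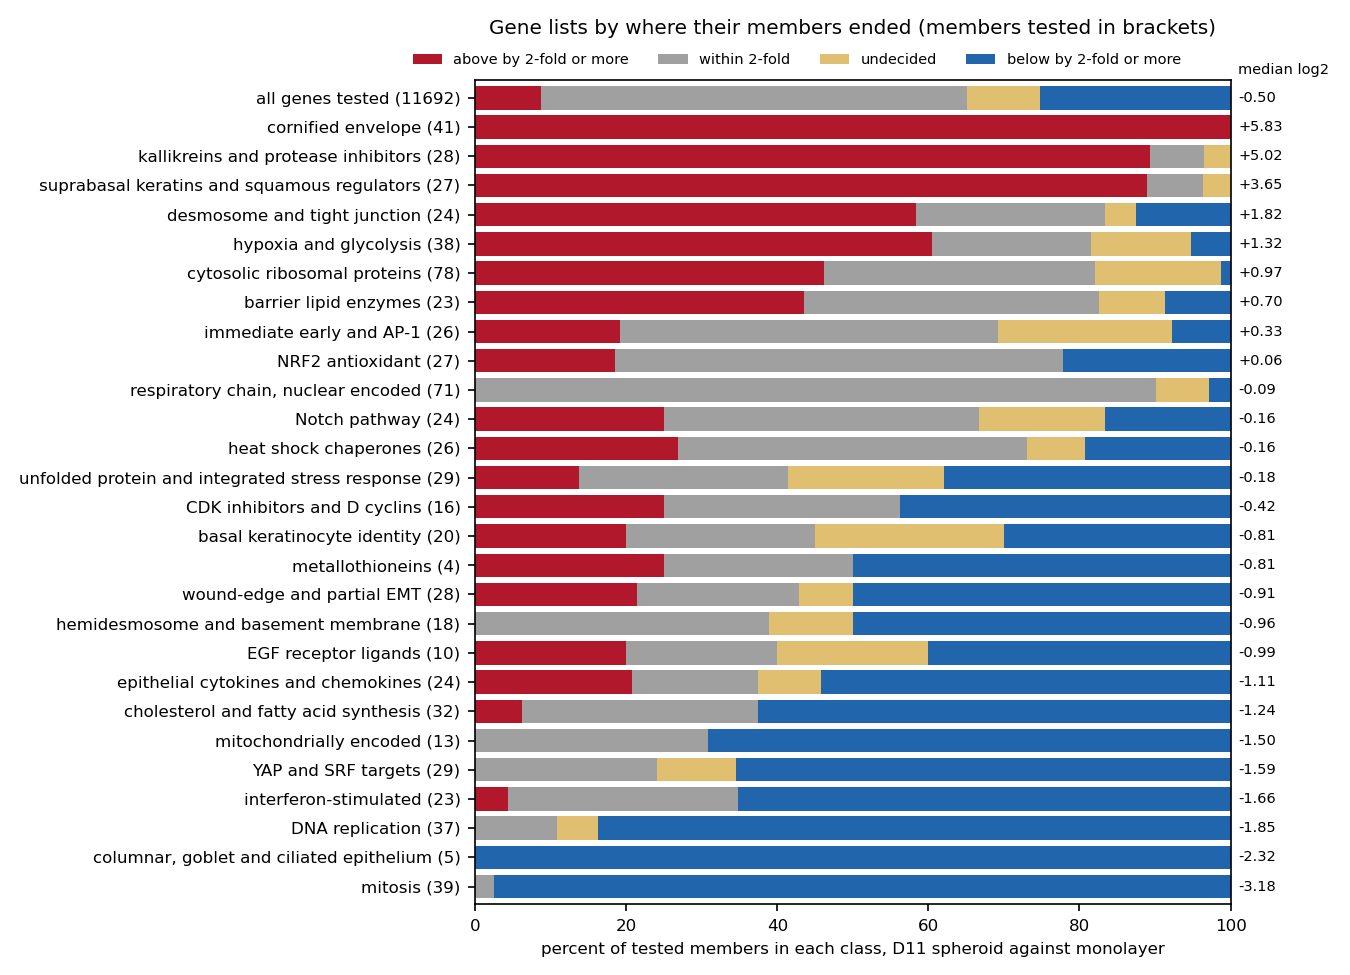
Share of each gene list's tested members that ended above, within 2-fold of, or below the monolayer level (horizontal axis, percent), ordered by the median net change printed at the right in log2(TPM + 1), with all genes tested in the top bar. Cornified envelope genes are all above and 38 of 39 mitosis genes below, while the top bar shows 8.74% above and 25.3% below.

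Basal identity genes did not move as a block. Of 20 members, 20 were tested, 7 of which rose, 12 fell and 1 missed the threshold, with 4 above, 6 below, 5 level and 5 undecided, and their median net change was -0.81 as deposited and -1.37 to -0.22 under the other 3 scalings. After the median of ratios 9 members were higher and 9 lower. Over all genes 20.8% were higher, 66.0% lower and 25.3% below as deposited. FGFR3, a receptor that signals in basal keratinocytes, lay at 3.2 to 5.9 TPM (median 3.8) in monolayers, 127 to 156 TPM (median 148) at D3 and 35.3 to 48.5 TPM (median 45.2) at D11. FGFR3 was higher in all 7 D11 libraries than in any monolayer and changed by 3.18 ± 0.097 (adjusted p = 3.8e-15), and its D3 libraries were the highest. NGFR, a receptor of esophageal basal cells, fell, at 12 to 62 TPM (median 35.5) in monolayers and 0.3 to 1.1 TPM (median 1) at D11. NGFR did not overlap between monolayers and D11 and changed by -3.98 ± 0.21 (adjusted p = 7.8e-12). The Notch ligand DLL1 fell, at 29.3 to 35.7 TPM (median 33) in monolayers and 2.9 to 5.3 TPM (median 4.1) at D11. DLL1 stood lower in each D11 library than in each monolayer and changed by -2.75 ± 0.074 (adjusted p = 7.2e-16). TP63, the master regulator of squamous basal cells, lay at 16.4 to 26.1 TPM (median 20.1) in monolayers, 15.3 to 21.5 TPM (median 17.8) at D3 and 10.4 to 12.5 TPM (median 12.1) at D11. It fell by a size within 2-fold, -0.76 ± 0.088 (adjusted p = 3.1e-07), and over the 4 scalings the change was -1.33 to -0.19. SOX2, a foregut and basal factor, rose at D3 and came back: it lay at 23 to 54.9 TPM (median 37.3) in monolayers, 86.4 to 108 TPM (median 103) at D3 and 33.5 to 59 TPM (median 47.6) at D11. Its net change of 0.28 ± 0.11 had an adjusted p of 0.031, turned to -0.29 with mitochondrial genes removed, and lost its call without any 1 of monolayer libraries 6 or 8 or D11 libraries 5, 6 or 7 (0.17 to 0.26).

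Most genes that hold basal cells to the matrix ended level or below as deposited. Of 20 hemidesmosome and basement membrane genes, 18 were tested, 3 of which rose, 14 fell and 1 missed the threshold. None ended above, 9 ended below, 7 were level and 2 undecided (median -0.96 as deposited and -1.54 to -0.36 under the other 3 scalings). After the median of ratios 6 members were higher and 2 ended above. Over all genes 66.0% were lower, 25.3% below and 56.3% level as deposited. ITGA3, an integrin chain that binds laminin 332, fell, at 404 to 563 TPM (median 472) in monolayers, 143 to 218 TPM (median 176) at D3 and 63.4 to 94.5 TPM (median 78.1) at D11. ITGA3 was lower in all 7 D11 libraries than in any monolayer and changed by -2.59 ± 0.1 (adjusted p = 1.0e-13). COL4A2, a basement membrane collagen, lay at 15.8 to 25.7 TPM (median 20) in monolayers, 1.3 to 3.3 TPM (median 1.7) at D3 and 2.3 to 3.8 TPM (median 2.7) at D11. COL4A2 did not overlap between monolayers and D11 and changed by -2.43 ± 0.062 (adjusted p = 3.6e-16). The laminin chain LAMB3 lay at 421 to 1128 TPM (median 757) in monolayers, 74.6 to 129 TPM (median 96.8) at D3 and 311 to 356 TPM (median 340) at D11. Its net change of -1.02 ± 0.16 (adjusted p = 1.5e-05) was -0.43 in batch 1 and -1.71 in batch 2, and -0.41 after the median of ratios. In both batches D11 libraries lay above D3 and below monolayers. COL17A1, a hemidesmosomal collagen, stayed within 2-fold at 255 to 334 TPM (median 298) in monolayers, 248 to 381 TPM (median 312) at D3 and 305 to 385 TPM (median 345) at D11, with a change of 0.24 ± 0.067 as deposited (adjusted p = 0.0027), -0.016 after quantile normalization and -0.33 with mitochondrial genes removed. ITGA6, its integrin partner, stayed within 2-fold too, at -0.37 ± 0.054 (adjusted p = 4.9e-06) as deposited and 0.23 after the median of ratios. The largest rises of the list were below 2-fold, 0.58 ± 0.093 for the plakin DST, which was 0.026 with mitochondrial genes removed (adjusted p = 0.83, call lost), and 0.48 ± 0.1 for the tetraspanin CD151, which was -0.091 with mitochondrial genes removed.

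Cell division genes ended low. Of 41 mitosis genes, 39 were tested, 1 of which rose, 38 fell and 0 missed the threshold, and 38 ended below the monolayer level, against 25.3% of all genes (median -3.18 as deposited and -3.91 to -2.75 under the other 3 scalings). The summed level of the 41 mitosis genes in the table was 1058 to 2072 TPM in monolayers, 654 to 1232 TPM at D3 and 116 to 148 TPM at D11. MKI67, the proliferation marker at chromosome 10, 128096659 to 128126385, measured 118 to 237 TPM (median 177) in monolayers, 48.7 to 118 TPM (median 58.1) at D3 and 0.6 to 1.4 TPM (median 1.1) at D11. MKI67 stood lower in each D11 library than in each monolayer and changed by -6.45 ± 0.11 (adjusted p = 1.9e-18). CDC20, the activator of the anaphase-promoting complex at chromosome 1, 43358955 to 43363203, measured 148 to 355 TPM (median 249.9) in monolayers, 76 to 198 TPM (median 99.6) at D3 and 1.2 to 4.6 TPM (median 3.4) at D11. CDC20 was lower in all 7 D11 libraries than in any monolayer and changed by -5.88 ± 0.2 (adjusted p = 1.5e-14). In both genes every D11 library lay below every D3 library. KIF20A, a kinesin of cytokinesis, lay at 37.2 to 89.5 TPM (median 60.8) in monolayers, 31.3 to 68.5 TPM (median 43.5) at D3 and 0.4 to 1.3 TPM (median 0.5) at D11. KIF20A did not overlap between monolayers and D11 and changed by -5.19 ± 0.18 (adjusted p = 2.8e-14). Its D3 change was -0.31 (adjusted p = 0.1), which did not pass. HASPIN, a kinase of mitotic histone H3, lay at 29.9 to 76.2 TPM (median 53.2) in monolayers, 12.3 to 37.1 TPM (median 19) at D3 and 0 to 2.5 TPM (median 0) at D11. HASPIN stood lower in each D11 library than in each monolayer and changed by -5.35 ± 0.24 (adjusted p = 6.9e-13). PTTG1, securin, was the member that rose as deposited. It lay at 23.3 to 49.1 TPM (median 32.1) in monolayers, 33.7 to 50.5 TPM (median 42.1) at D3 and 35.3 to 70.6 TPM (median 51.9) at D11, with a change of 0.61 ± 0.17 (adjusted p = 0.0032) that was 0.036 in batch 1 and 1.30 in batch 2. With mitochondrial genes removed it was 0.054 and the call was lost (adjusted p = 0.74).

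The promoters of CDC20 and MKI67 are shown because both genes are among the 10 largest falls and belong to the mitosis list. Each is the 250 bases before the RefSeq start (GRCh38.p14), read 5′ to 3′ along the gene, on the plus strand for CDC20 and the minus strand for MKI67. Capitals mark the CHR element of mitotic promoters (TTTGAA) and CCAAT boxes (CCAAT), both searched on both strands, so that TTCAAA and ATTGG are matches of the other strand. In MKI67 the last CHR match and the last CCAAT match share 1 base.
CDC20, chr1:43358731-43358980: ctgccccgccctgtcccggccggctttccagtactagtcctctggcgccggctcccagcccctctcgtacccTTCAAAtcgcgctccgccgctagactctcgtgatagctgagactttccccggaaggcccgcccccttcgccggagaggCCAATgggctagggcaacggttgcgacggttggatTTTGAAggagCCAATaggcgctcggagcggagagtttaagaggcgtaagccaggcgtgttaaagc
MKI67, chr10:128126424-128126673: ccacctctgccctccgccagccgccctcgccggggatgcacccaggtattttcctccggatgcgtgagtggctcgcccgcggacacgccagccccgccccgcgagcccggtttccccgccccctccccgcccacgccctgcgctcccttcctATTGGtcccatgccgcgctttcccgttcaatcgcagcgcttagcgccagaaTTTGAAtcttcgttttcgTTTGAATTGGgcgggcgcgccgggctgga
CHR matches lay 178 and 65 bases before the start of CDC20 and 47 and 29 bases before that of MKI67. Of 32 mitosis genes with a promoter in the table, of 39 tested, 16 (50.0%) held a CHR match and 24 (75.0%) a CCAAT box, against 13.6% and 33.0% of all 27303 promoters. For 30 of 37 DNA replication genes the numbers were 1 (3.33%) and 19 (63.3%). Of the 9203 promoters found for genes tested, 8.21% held a CHR match and 35.8% a CCAAT box. AP-1 sites were in 0 of the 32 mitosis promoters, against 4.27% of those 9203 and 6.60% of all 27303. With shares this low, 0 of 32 does not set the mitosis promoters apart.

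Of 42 DNA replication genes, 37 were tested, 1 of which rose, 35 fell and 1 missed the threshold, with 31 below and none above (median -1.85 as deposited and -2.52 to -1.38 under the other 3 scalings, and -2.66 in batch 1 and -1.20 in batch 2). Over all genes 66.0% were lower and 25.3% below as deposited. Thymidine kinase TK1 lay at 33.8 to 86.4 TPM (median 59.8) in monolayers, 21.5 to 39.4 TPM (median 27.1) at D3 and 3.2 to 4.8 TPM (median 3.8) at D11. TK1 was lower in all 7 D11 libraries than in any monolayer and changed by -3.59 ± 0.12 (adjusted p = 1.2e-14). GINS4, a subunit of the replicative helicase, lay at 7.3 to 29.7 TPM (median 17.1) in monolayers, 4.1 to 12 TPM (median 5.2) at D3 and 0 to 0.8 TPM (median 0.6) at D11. GINS4 did not overlap between monolayers and D11 and changed by -3.57 ± 0.15 (adjusted p = 2.0e-13). The clamp PCNA lay at 23.7 to 152 TPM (median 78.2) in monolayers, 40.2 to 94.5 TPM (median 52.5) at D3 and 11.5 to 22.3 TPM (median 20.8) at D11. PCNA stood lower in each D11 library than in each monolayer and changed by -1.85 ± 0.22 (adjusted p = 4.6e-07). Its monolayers differed between batches, at 131 to 152 TPM in batch 1 and 23.7 to 25.9 TPM in batch 2, and the net change was -2.66 and -0.89. The exception was the polymerase chain POLA1, at 2.4 to 3.6 TPM (median 2.9) in monolayers and 3.3 to 3.9 TPM (median 3.6) at D11, whose rise of 0.20 ± 0.05 (adjusted p = 0.0012) turned to -0.26 with mitochondrial genes removed. Among 16 CDK inhibitors and D cyclins, 16 were tested, 6 of which rose, 9 fell and 1 missed the threshold, with 4 above, 7 below, 5 level and 0 undecided. The median was -0.42 as deposited and -0.96 to 0.10 under the other 3 scalings. The inhibitors CDKN2B and CDKN2D rose. CDKN2B lay at 18.7 to 40 TPM (median 29.1) in monolayers and 208 to 330.2 TPM (median 302) at D11. CDKN2B was higher in all 7 D11 libraries than in any monolayer and changed by 3.26 ± 0.18 (adjusted p = 1.0e-11). CDKN2D lay at 12.5 to 32.8 TPM (median 24) in monolayers and 83 to 94.6 TPM (median 88.6) at D11. CDKN2D did not overlap between monolayers and D11 and changed by 2.04 ± 0.12 (adjusted p = 2.1e-11). CDKN1A, the p21 inhibitor, lay at 227 to 536 TPM (median 356) in monolayers, 151 to 336 TPM (median 244) at D3 and 838 to 1046 TPM (median 1005) at D11. CDKN1A stood higher in each D11 library than in each monolayer and changed by 1.52 ± 0.17 (adjusted p = 1.6e-07), and the rise was 2.12 in batch 1 and 0.79 in batch 2. Cyclin D1 (CCND1) fell, at 115 to 241 TPM (median 174) in monolayers and 20.3 to 23.4 TPM (median 21.8) at D11. CCND1 was lower in all 7 D11 libraries than in any monolayer and changed by -2.92 ± 0.13 (adjusted p = 6.7e-13). CDKN2A fell, at 2.4 to 3.5 TPM (median 3.05) in monolayers and 0.2 to 0.7 TPM (median 0.2) at D11. CDKN2A did not overlap between monolayers and D11 and changed by -1.62 ± 0.075 (adjusted p = 1.1e-12).

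YAP and SRF respond to tension on the cytoskeleton, and their targets are high in spread cells. Of 32 such targets, 29 were tested, 3 of which rose, 25 fell and 1 missed the threshold, with 0 above, 19 below, 7 level and 3 undecided (median -1.59 as deposited and -2.17 to -1.0 under the other 3 scalings). Over all genes 66.0% were lower and 25.3% below as deposited. Thrombospondin 1 (THBS1), a matrix glycoprotein at chromosome 15, 39581079 to 39599466, measured 2909.6 to 3876 TPM (median 3336) in monolayers, 72 to 152 TPM (median 84.7) at D3 and 22.9 to 30.3 TPM (median 27.9) at D11. THBS1 stood lower in each D11 library than in each monolayer and changed by -6.86 ± 0.055 (adjusted p = 6.9e-23). Every D3 library lay below every monolayer library, and every D11 library lay below every D3 library. CCN2, a matricellular growth factor, reached its lowest level at D3: it lay at 113 to 248 TPM (median 178) in monolayers, 0.8 to 1.8 TPM (median 1.6) at D3 and 4.9 to 8.4 TPM (median 6.8) at D11. CCN2 was lower in all 7 D11 libraries than in any monolayer and changed by -4.43 ± 0.16 (adjusted p = 4.1e-14), and by -6.17 at D3. All D11 libraries of CCN2 lay above all D3 libraries and below all monolayers. The members that rose did so within 2-fold. TAGLN2, an actin-binding protein, was at 0.36 ± 0.069 (adjusted p = 1.2e-04) as deposited, -0.12 after quantile normalization and -0.22 with mitochondrial genes removed. The kinase NUAK2 came back after a fall at D3, at 15.5 to 46.1 TPM (median 30.3) in monolayers, 6.1 to 11.6 TPM (median 8.9) at D3 and 33.5 to 42.7 TPM (median 40.1) at D11. Its net change was 0.53 ± 0.19 (adjusted p = 0.017), -0.024 with mitochondrial genes removed, 1.22 in batch 1 and -0.29 in batch 2.

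Wound-edge genes are those of keratinocytes that migrate over a provisional matrix. Of 31 members, 28 were tested, 7 of which rose, 18 fell and 3 missed the threshold, with 6 above, 14 below, 6 level and 2 undecided, against 66.0% lower and 20.8% higher over all genes (median -0.91 as deposited and -1.49 to -0.31 under the other 3 scalings). Fibronectin (FN1), the main protein of that matrix, at chromosome 2, 215360440 to 215436172, measured 569 to 1556 TPM (median 1065) in monolayers, 6.3 to 8.9 TPM (median 7.5) at D3 and 13.7 to 18.9 TPM (median 16.3) at D11. FN1 did not overlap between monolayers and D11 and changed by -5.79 ± 0.15 (adjusted p = 4.3e-16). It was lowest at D3 and its D11 libraries lay above all D3 libraries. Tenascin C (TNC) showed the same order of medians, at 49.4 to 115 TPM (median 79.3) in monolayers, 2.6 to 6.3 TPM (median 3.6) at D3 and 3.9 to 9.9 TPM (median 6.9) at D11, with a log2 change of -3.34 ± 0.22 (adjusted p = 1.4e-10) and overlap of D3 and D11. Members that ended above included IGFBP3 and COL1A1. IGFBP3, which binds insulin-like growth factors, lay at 0.6 to 2.3 TPM (median 1.4) in monolayers, 48.9 to 783 TPM (median 719) at D3 and 75.5 to 284 TPM (median 148) at D11. IGFBP3 stood higher in each D11 library than in each monolayer and changed by 6.10 ± 0.25 (adjusted p = 2.0e-13). COL1A1, a fibrillar collagen, lay at 3.3 to 9.5 TPM (median 5.9) in monolayers, 8 to 30.3 TPM (median 23.9) at D3 and 57.9 to 78.1 TPM (median 74.9) at D11. COL1A1 was higher in all 7 D11 libraries than in any monolayer and changed by 3.47 ± 0.11 (adjusted p = 7.2e-15). COL1A1 also stands in the fibroblast list. There it passed the filter together with periostin (POSTN), which fell, at 2.3 to 4.5 TPM (median 3.45) in monolayers and 0.1 to 0.2 TPM (median 0.2) at D11. POSTN did not overlap between monolayers and D11 and changed by -1.86 ± 0.08 (adjusted p = 3.8e-13), and the other 10 members were not tested. The summed level of the fibroblast list was 6.2 to 14.0 TPM in monolayers and 58.2 to 78.2 TPM at D11, with 5 and 7 of its 12 members listed at 0 in every library, and its part in the wound-edge result was not tested. The lipolysis inhibitor G0S2 was higher at D11 than at D3 and lower than in monolayers, without overlap, at 1579 to 4165 TPM (median 2922) in monolayers, 9.9 to 21.7 TPM (median 17) at D3 and 132 to 320.3 TPM (median 199) at D11, with -7.43 at D3 and a log2 change of -3.76 ± 0.23 (adjusted p = 5.5e-11) at D11.

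Among secreted signals falls outnumbered rises, as they did over all genes tested (66.0% lower and 20.8% higher). Of 31 epithelial cytokines and chemokines, 24 were tested, 6 of which rose, 15 fell and 3 missed the threshold, with 5 above and 13 below (median -1.11 as deposited and -1.69 to -0.73 under the other 3 scalings). The largest net fall among the genes named was in CSF3, the granulocyte growth factor at chromosome 17, 40015361 to 40017813, which measured 368 to 679.5 TPM (median 485) in monolayers, 2.5 to 41.1 TPM (median 6.5) at D3 and 0 to 3.1 TPM (median 0.9) at D11. CSF3 stood lower in each D11 library than in each monolayer and changed by -7.96 ± 0.25 (adjusted p = 5.7e-15). The neutrophil chemokine CXCL1 lay at 34.2 to 88 TPM (median 62.1) in monolayers, 0.8 to 2.4 TPM (median 1.4) at D3 and 0.8 to 1.8 TPM (median 1.3) at D11. CXCL1 was lower in all 7 D11 libraries than in any monolayer and changed by -4.66 ± 0.12 (adjusted p = 3.8e-16). CXCL8, another, was low throughout, at 3 to 9.6 TPM (median 4.7) in monolayers, 0 to 1.4 TPM (median 0.3) at D3 and 0.6 to 3.2 TPM (median 2.2) at D11. CXCL8 overlapped between monolayers and D11 and changed by -1.18 ± 0.22 (adjusted p = 9.4e-05). The antagonists rose: IL36RN, the interleukin 36 receptor antagonist, lay at 0 to 0.1 TPM (median 0) in monolayers, 1.2 to 14.1 TPM (median 10.9) at D3 and 58.5 to 94.7 TPM (median 84.9) at D11. IL36RN stood higher in each D11 library than in each monolayer and changed by 6.29 ± 0.078 (adjusted p = 2.0e-20). IL1RN, the interleukin 1 receptor antagonist, lay at 6.8 to 13 TPM (median 10.4) in monolayers, 18.1 to 43.1 TPM (median 36.1) at D3 and 121 to 168 TPM (median 149.5) at D11. IL1RN was higher in all 7 D11 libraries than in any monolayer and changed by 3.82 ± 0.079 (adjusted p = 2.3e-17). TNFRSF6B, a soluble decoy receptor of the TNF family, was among the 10 largest falls, at 921 to 1577 TPM (median 1113) in monolayers, 38.6 to 159.7 TPM (median 68.6) at D3 and 9.7 to 20.4 TPM (median 14.4) at D11. TNFRSF6B did not overlap between monolayers and D11 and changed by -6.19 ± 0.14 (adjusted p = 8.3e-17). So was the hexose transporter SLC2A6, at 50.2 to 72.9 TPM (median 63.8) in monolayers, 3.1 to 9.7 TPM (median 5.3) at D3 and 0.3 to 1.3 TPM (median 0.5) at D11. SLC2A6 stood lower in each D11 library than in each monolayer and changed by -5.28 ± 0.078 (adjusted p = 2.1e-19).

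Of 12 EGF receptor ligands and receptors, 10 were tested, 2 of which rose, 8 fell and 0 missed the threshold (median -0.99 as deposited and -1.56 to -0.44 under the other 3 scalings). Over all genes 20.8% were higher and 66.0% lower as deposited. The receptor ERBB3 rose, at 1.8 to 3 TPM (median 2.35) in monolayers and 10.6 to 15.5 TPM (median 13.4) at D11. ERBB3 was higher in all 7 D11 libraries than in any monolayer and changed by 2.05 ± 0.09 (adjusted p = 5.1e-13). So did the ligand EPGN, at 1.5 to 3.2 TPM (median 2.15) in monolayers and 3.3 to 14.4 TPM (median 8.9) at D11. EPGN did not overlap between monolayers and D11 and changed by 1.31 ± 0.23 (adjusted p = 3.5e-05), but most of its rise was in batch 1. There EPGN lay at 1.5 to 2.1 TPM in monolayers and 8.9 to 14.4 TPM at D11. In batch 2 the ranges were 2.2 to 3.2 TPM and 3.3 to 4.0 TPM. The ligands HBEGF and EREG fell, with a log2 change of -1.92 ± 0.52 (adjusted p = 0.0025) and a log2 change of -1.92 ± 0.27 (adjusted p = 2.7e-06), and both depended on the batch. HBEGF lay at 21.1 to 25.7 TPM in monolayers and 18.4 to 31.7 TPM at D11 in batch 1, and at 125 to 137 TPM and 5.5 to 7 TPM in batch 2, and its net change was 0.009 and -4.21. Of 32 interferon-stimulated genes, 23 were tested, 1 of which rose, 16 fell and 6 missed the threshold, with 15 below, against 66.0% lower and 25.3% below over all genes (median -1.66 as deposited and -2.24 to -1.19 under the other 3 scalings, and -0.75 in batch 1 and -2.33 in batch 2). ISG15, a ubiquitin-like modifier, fell, at 6.6 to 32.3 TPM (median 16.4) in monolayers and 0.8 to 1.4 TPM (median 1.2) at D11. ISG15 stood lower in each D11 library than in each monolayer and changed by -2.74 ± 0.24 (adjusted p = 5.9e-09). OAS2, a sensor of double-stranded RNA, fell, at 17.7 to 42.8 TPM (median 29.1) in monolayers and 2.6 to 4.8 TPM (median 4.1) at D11. OAS2 was lower in all 7 D11 libraries than in any monolayer and changed by -2.51 ± 0.18 (adjusted p = 6.6e-10). IFI27 was the member that rose, at 3.2 to 14.6 TPM (median 9.4) in monolayers, 1.1 to 3.6 TPM (median 2.3) at D3 and 13.7 to 26.4 TPM (median 21.1) at D11. IFI27 had overlapping libraries in monolayers and at D11 and changed by 1.29 ± 0.19 (adjusted p = 7.3e-06).

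Of 29 Notch pathway genes, 24 were tested, 9 of which rose, 12 fell and 3 missed the threshold, with 6 above, 4 below, 10 level and 4 undecided. Their median was -0.16 as deposited and -0.73 to 0.44 under the other 3 scalings, so it changed sign with the scaling. NOTCH3, the receptor of suprabasal cells, was listed at 0 in all 10 monolayers and lay at 21.1 to 54.3 TPM (median 40.9) at D3 and 68.8 to 92.5 TPM (median 77.6) at D11. HES5, a target of the pathway, was also listed at 0 in all monolayers and lay at 0.6 to 6.1 TPM (median 3.6) at D3 and 12.1 to 26 TPM (median 17.7) at D11. NOTCH1 lay at 35 to 58.3 TPM (median 47.3) in monolayers, 33.7 to 57 TPM (median 51.6) at D3 and 36 to 46.9 TPM (median 39.8) at D11 with overlapping libraries, and its change of -0.14 ± 0.064 did not pass (adjusted p = 0.058). It was -0.70 to 0.46 over the 4 scalings. The ligand JAG1 fell, at 115 to 329 TPM (median 214) in monolayers, 23.5 to 49.8 TPM (median 26.1) at D3 and 41.1 to 56.6 TPM (median 46.5) at D11. JAG1 stood lower in each D11 library than in each monolayer and changed by -1.95 ± 0.21 (adjusted p = 1.1e-07).

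In energy metabolism, most hypoxia and glycolysis genes rose and most mitochondrially encoded transcripts fell. Of 38 hypoxia and glycolysis genes, 38 were tested, 32 of which rose, 3 fell and 3 missed the threshold, with 23 above and 2 below (median 1.32 as deposited and 0.81 to 1.88 under the other 3 scalings). Carbonic anhydrase 9 (CA9), a classic target of the hypoxia factor HIF1, lay at 0 to 0.4 TPM (median 0) in monolayers, 1.8 to 43.9 TPM (median 22.3) at D3 and 93.7 to 164 TPM (median 108) at D11. CA9 was higher in all 7 D11 libraries than in any monolayer and changed by 6.85 ± 0.11 (adjusted p = 5.7e-19). ANKRD37, another such target, lay at 2.8 to 5.2 TPM (median 3.85) in monolayers, 3.4 to 7 TPM (median 5) at D3 and 84.3 to 309 TPM (median 159) at D11. ANKRD37 did not overlap between monolayers and D11 and changed by 5.14 ± 0.21 (adjusted p = 2.4e-13). ANKRD37 did not pass at D3 (adjusted p = 0.1), and its D11 libraries did not overlap those of either earlier group. The muscle-type phosphofructokinase PFKM, at -1.36 ± 0.055, and the lactate exporter SLC16A3, at -1.20 ± 0.037, ended below (adjusted p of 1.8e-13 and 4.0e-15). Of 13 mitochondrially encoded genes, 13 were tested, 0 of which rose, 11 fell and 2 missed the threshold, with 9 below and 4 level (median -1.50 as deposited and -1.40 to -0.89 under the 2 other scalings that keep these genes). Over all genes 66.0% were lower and 25.3% below as deposited. After the median of ratios 2 members were higher and 9 lower, with 3 below, 6 level and 4 undecided. After quantile normalization 0 were higher and 11 lower, with 8 below. MT-ATP6, a subunit of ATP synthase, lay at 48659.8 to 61829 TPM (median 54310) in monolayers, 42745 to 64291 TPM (median 59986) at D3 and 9394 to 15574 TPM (median 11682) at D11. MT-ATP6 stood lower in each D11 library than in each monolayer and changed by -2.17 ± 0.088 (adjusted p = 1.6e-13). MT-ATP8, whose reading frame overlaps it, lay at 19719 to 28977 TPM (median 22789) in monolayers and 2938 to 5983 TPM (median 4801) at D11. MT-ATP8 was lower in all 7 D11 libraries than in any monolayer and changed by -2.31 ± 0.13 (adjusted p = 1.2e-11). Nuclear genes of the respiratory chain ended near the monolayer level: of 71 members, 71 were tested, 22 of which rose, 27 fell and 22 missed the threshold, and 64 were level, against 56.3% of all genes. Their median was -0.09 as deposited and -0.63 to 0.48 under the other 3 scalings, and the split of calls turned with the scaling: after the median of ratios 55 were higher and 5 lower, and with mitochondrial genes removed 3 were higher and 61 lower. Of those named, ATP5MC2 stood at 0.95 ± 0.062, COX7C at 0.78 ± 0.09, SDHA at -1.28 ± 0.062 and ATP5MC1 at -1.20 ± 0.12, each with an adjusted p of 3.1e-07 or less.

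Cytosolic ribosomal protein genes rose as deposited with 1 exception among those tested. Of 78 members, 78 were tested, 77 of which rose, 1 fell and 0 missed the threshold, with 36 above as deposited, 77 above after the median of ratios and 25 after quantile normalization (median 0.97 as deposited and 0.40 to 1.57 under the other 3 scalings). With mitochondrial genes removed 66 rose, 2 ended above and 71 were level. RPS27 lay at 32.7 to 58.8 TPM (median 46.6) in monolayers, 35.6 to 86.9 TPM (median 60.3) at D3 and 218 to 277 TPM (median 249.5) at D11. RPS27 did not overlap between monolayers and D11 and changed by 2.45 ± 0.11 (adjusted p = 1.0e-12). RPL39 lay at 28.3 to 48.5 TPM (median 39.1) in monolayers and 97.1 to 189 TPM (median 148) at D11. RPL39 stood higher in each D11 library than in each monolayer and changed by 1.78 ± 0.12 (adjusted p = 1.9e-10). RPL36A was the member that fell, at 9.8 to 15.2 TPM (median 12.1) in monolayers and 2.6 to 7 TPM (median 4.4) at D11. RPL36A was lower in all 7 D11 libraries than in any monolayer and changed by -1.20 ± 0.13 (adjusted p = 8.6e-08). These genes have many processed pseudogenes, so single values are uncertain.

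Most sterol and fatty acid synthesis genes fell. Of 32 members, 32 were tested, 3 of which rose, 26 fell and 3 missed the threshold, with 2 above, 20 below and 10 level (median -1.24 as deposited and -1.81 to -0.64 under the other 3 scalings). After the median of ratios 5 members were higher and 22 lower. Over all genes 66.0% were lower and 25.3% below as deposited. ACAT2, a cytosolic thiolase of the first step, fell, at 45.2 to 94.4 TPM (median 66) in monolayers and 5.6 to 10 TPM (median 8.8) at D11. ACAT2 stood lower in each D11 library than in each monolayer and changed by -2.90 ± 0.17 (adjusted p = 2.0e-11). The sterol reductase TM7SF2 rose instead, at 6.1 to 11.5 TPM (median 8) in monolayers, 9.5 to 26.7 TPM (median 21.4) at D3 and 74.9 to 104 TPM (median 92) at D11. TM7SF2 was higher in all 7 D11 libraries than in any monolayer and changed by 3.26 ± 0.08 (adjusted p = 2.0e-16). PMVK, phosphomevalonate kinase, rose too, at 5.2 to 9.7 TPM (median 8.35) in monolayers and 11.8 to 28.5 TPM (median 20.1) at D11. PMVK did not overlap between monolayers and D11 and changed by 1.16 ± 0.089 (adjusted p = 1.2e-09).

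Stress genes were mixed and differed between batches. Of 29 genes that respond to unfolded proteins or integrated stress, 29 were tested, 5 of which rose, 13 fell and 11 missed the threshold, with a median of -0.18 as deposited and -0.72 to 0.39 under the other 3 scalings, and 0.90 in batch 1 and -1.43 in batch 2. NUPR1, a stress-induced nuclear protein, rose, at 0 to 10.3 TPM (median 3.85) in monolayers, 29.5 to 83.4 TPM (median 36.2) at D3 and 148 to 387 TPM (median 322) at D11. NUPR1 stood higher in each D11 library than in each monolayer and changed by 6.31 ± 0.45 (adjusted p = 4.4e-10). VLDLR rose, at 3.8 to 10.9 TPM (median 7.15) in monolayers and 26.4 to 32.9 TPM (median 30.4) at D11. VLDLR was higher in all 7 D11 libraries than in any monolayer and changed by 2.07 ± 0.13 (adjusted p = 7.4e-11). The folding factors SDF2L1 and PDIA4 of the endoplasmic reticulum fell. SDF2L1 lay at 85.5 to 164 TPM (median 112) in monolayers and 19.1 to 25.9 TPM (median 21.7) at D11. SDF2L1 did not overlap between monolayers and D11 and changed by -2.41 ± 0.079 (adjusted p = 9.1e-15). PDIA4 lay at 112 to 173 TPM (median 139.8) in monolayers and 25.5 to 35 TPM (median 31.7) at D11. PDIA4 stood lower in each D11 library than in each monolayer and changed by -2.12 ± 0.1 (adjusted p = 1.4e-12). Of 27 heat shock chaperones, 26 were tested, 8 of which rose, 12 fell and 6 missed the threshold (median -0.16 as deposited and -0.71 to 0.41 under the other 3 scalings). After the median of ratios 14 chaperones were higher and 4 lower, and with mitochondrial genes removed 8 and 17. The small heat shock proteins ended above: HSPB1 lay at 959 to 1462 TPM (median 1124) in monolayers, 5104 to 17327 TPM (median 11506) at D3 and 20963 to 31059.5 TPM (median 27143) at D11. HSPB1 was higher in all 7 D11 libraries than in any monolayer and changed by 4.55 ± 0.062 (adjusted p = 7.1e-20). CRYAB lay at 0 to 0.1 TPM (median 0) in monolayers, 2.2 to 24.2 TPM (median 18.6) at D3 and 41.5 to 95.9 TPM (median 56.9) at D11. CRYAB did not overlap between monolayers and D11 and changed by 6.01 ± 0.13 (adjusted p = 2.6e-17). CCT5, a chaperonin subunit, fell, at 71.1 to 161 TPM (median 113) in monolayers and 31.2 to 46.8 TPM (median 45.3) at D11. CCT5 stood lower in each D11 library than in each monolayer and changed by -1.50 ± 0.065 (adjusted p = 4.5e-13). HSPA8 was called below at -1.46 ± 0.4 (adjusted p = 0.0025), but stood at -2.93 in batch 1 and 0.29 in batch 2, and lost the call after the median of ratios (-0.85, adjusted p = 0.072), with monolayers at 2847 to 3003 TPM and 257 to 282 TPM.

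Of 30 immediate early and AP-1 genes, 26 were tested, 14 of which rose, 4 fell and 8 missed the threshold, with 5 above, 2 below, 13 level and 6 undecided (median 0.33 as deposited and -0.18 to 0.87 under the other 3 scalings, and 0.73 in batch 1 and -0.16 in batch 2). The split was 18 higher and 2 lower after the median of ratios, and 5 higher and 10 lower with mitochondrial genes removed. The phosphatase DUSP1 rose, at 9.8 to 82 TPM (median 40.9) in monolayers, 19.2 to 64.6 TPM (median 47.2) at D3 and 290.3 to 467 TPM (median 359) at D11. DUSP1 was higher in all 7 D11 libraries than in any monolayer and changed by 3.71 ± 0.3 (adjusted p = 2.0e-09). FOS rose, at 5.1 to 84.3 TPM (median 39.9) in monolayers and 107 to 395 TPM (median 265) at D11. FOS did not overlap between monolayers and D11 and changed by 3.23 ± 0.6 (adjusted p = 7.9e-05), and its monolayers lay at 5.1 to 8.7 TPM in batch 1 and 71 to 84.3 TPM in batch 2. FOSL1, the AP-1 partner of migrating cells, fell at D3 and stayed low, at 299 to 353 TPM (median 315) in monolayers, 25.4 to 57.1 TPM (median 40.7) at D3 and 22.6 to 51.9 TPM (median 36.2) at D11. FOSL1 stood lower in each D11 library than in each monolayer and changed by -3.19 ± 0.11 (adjusted p = 1.1e-14). DUSP6 fell, at 293 to 420.4 TPM (median 341) in monolayers and 91.6 to 194 TPM (median 162) at D11. DUSP6 was lower in all 7 D11 libraries than in any monolayer and changed by -1.35 ± 0.17 (adjusted p = 6.7e-07). Its fall was smaller in batch 1, at 293 to 306 TPM in monolayers and 162 to 194 TPM at D11. In batch 2 the ranges were 376.5 to 420.4 TPM and 91.6 to 94.8 TPM. Of 30 NRF2 antioxidant genes, 27 were tested, 12 of which rose, 10 fell and 5 missed the threshold (median 0.06 as deposited and -0.46 to 0.66 under the other 3 scalings). These numbers were 18 and 8 after the median of ratios, and 6 and 15 with mitochondrial genes removed. The aldo-keto reductases AKR1C1 and AKR1C2, close paralogs, rose. AKR1C1 lay at 3.8 to 7.6 TPM (median 5.45) in monolayers, 62 to 112 TPM (median 72.7) at D3 and 36.1 to 45.3 TPM (median 42.8) at D11. AKR1C1 did not overlap between monolayers and D11 and changed by 2.71 ± 0.085 (adjusted p = 5.0e-15). AKR1C2 lay at 1.7 to 3.2 TPM (median 2.55) in monolayers and 19.9 to 27.1 TPM (median 23) at D11. AKR1C2 stood higher in each D11 library than in each monolayer and changed by 2.81 ± 0.089 (adjusted p = 6.0e-15). GCLM, which limits glutathione synthesis, fell, at 24 to 31.4 TPM (median 25.6) in monolayers and 1.1 to 2.3 TPM (median 2.2) at D11. GCLM was lower in all 7 D11 libraries than in any monolayer and changed by -3.30 ± 0.057 (adjusted p = 1.7e-18). Of 10 metallothioneins 4 were tested, 2 of which rose and 2 fell (median -0.81 as deposited and -1.36 to -0.23 under the other 3 scalings). MT1X rose, at 73.2 to 111 TPM (median 91.4) in monolayers, 612 to 1322 TPM (median 856) at D3 and 1373 to 2382 TPM (median 1808) at D11. MT1X stood higher in each D11 library than in each monolayer and changed by 4.31 ± 0.12 (adjusted p = 1.0e-15). MT2A fell, at 3914 to 9207 TPM (median 6839) in monolayers, 1418 to 2861 TPM (median 1909.8) at D3 and 1329.8 to 1746 TPM (median 1506) at D11. MT2A was lower in all 7 D11 libraries than in any monolayer and changed by -2.10 ± 0.13 (adjusted p = 6.3e-11). MT1E fell too (-2.54 ± 0.08, adjusted p = 5.6e-15), and MT1F stood at 0.48 ± 0.12 (adjusted p = 0.0015) and at -0.05 with mitochondrial genes removed. Metallothionein copies are nearly identical, so reads may be split between them.

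A smaller set of genes left the monolayer level by D3 and was back at D11. There were 355 such genes (3.04% of those tested), 310 after a fall and 45 after a rise. Together they took 1.58 to 2.44% of the TPM in monolayers, 0.72 to 1.02% at D3 and 1.69 to 1.76% at D11. Being back means within 2-fold, not identical: 212 of the 355 were still lower at D11, 61 were higher and 216 had overlapping libraries. Without D3 libraries 4 and 7, 376 genes were back. The number depended on the scaling, with 225 genes back after the median of ratios (124 after a fall, 101 after a rise), 255 after quantile normalization and 198 with mitochondrial genes removed. Under all 4 scalings 29 genes were back, 13 after a fall and 16 after a rise. A net change that differed between batches was found for 239 of the 355, and 64 differed from the monolayer by 2-fold or more in 1 batch alone.

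**Figure D4:**
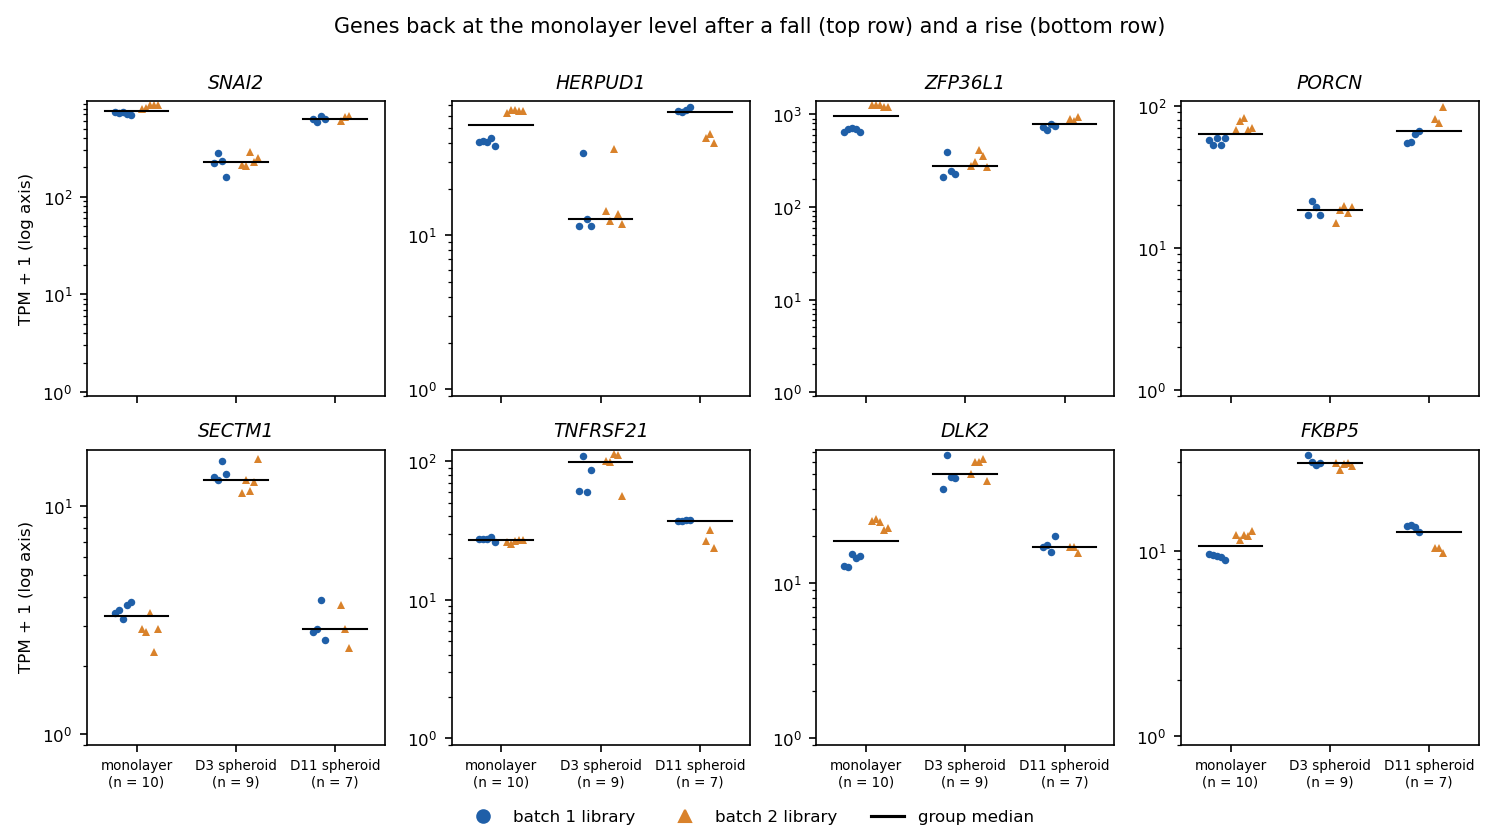
TPM + 1 on a log axis for 4 genes back at the monolayer level after a fall at D3 (top row) and 4 after a rise (bottom row), 1 point per library (circles for batch 1, triangles for batch 2), with group medians as bars. D3 libraries stand apart from the monolayers in each panel and D11 libraries lie near the monolayers, with opposite batch orders in monolayers and D11 for HERPUD1 and FKBP5.

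Among genes back after a fall, SNAI2, the transcription factor Slug of migrating basal keratinocytes, lay at 694 to 874 TPM (median 764) in monolayers, 158 to 289.6 TPM (median 228) at D3 and 585 to 676 TPM (median 625) at D11. It was -1.78 at D3 (adjusted p = 1.2e-16) and -0.29 ± 0.046 at D11, still lower (adjusted p = 1.1e-05) and without overlap as deposited, and 0.31 after the median of ratios. PORCN, the acyltransferase that Wnt ligands need for secretion, lay at 52.5 to 80.6 TPM (median 62.7) in monolayers, 14.1 to 20.3 TPM (median 17.6) at D3 and 53.7 to 97.2 TPM (median 65.4) at D11. Its net change of 0.14 ± 0.065 did not pass (adjusted p = 0.055), with a 95% interval of 0.001 to 0.28, after -1.83 at D3. It passed without any 1 of monolayer libraries 3, 7 or 8 or D11 libraries 1, 2 or 6 (0.15 to 0.17). ZFP36L1, an RNA-binding protein that speeds mRNA decay, lay at 638 to 1267 TPM (median 958) in monolayers, 209.5 to 407 TPM (median 279.9) at D3 and 686 to 926 TPM (median 796) at D11. ZFP36L1 changed by -1.68 at D3 and by -0.15 ± 0.084 at D11 (adjusted p = 0.097). HERPUD1, a component of protein degradation at the endoplasmic reticulum, lay at 37.3 to 64.7 TPM (median 51.5) in monolayers, 10.5 to 35.6 TPM (median 11.7) at D3 and 38.9 to 67 TPM (median 62.8) at D11. Its net change of 0.11 ± 0.16 did not pass (adjusted p = 0.54), and it was 0.69 in batch 1 and -0.59 in batch 2. PPP1R3B, a glycogen-targeting subunit of protein phosphatase 1, lay at 6.6 to 16.7 TPM (median 10.7) in monolayers, 1 to 2.4 TPM (median 1.7) at D3 and 9.5 to 17.8 TPM (median 11.9) at D11. PPP1R3B changed by -2.05 at D3 and by 0.31 ± 0.068 at D11 (adjusted p = 4.3e-04), and -0.22 with mitochondrial genes removed. PTPMT1, a mitochondrial phosphatase of cardiolipin synthesis, lay at 10.7 to 17.1 TPM (median 14.6) in monolayers, 0.2 to 7.2 TPM (median 2.8) at D3 and 10.4 to 18.1 TPM (median 16) at D11. PTPMT1 changed by -1.92 at D3 and by 0.14 ± 0.12 at D11 (adjusted p = 0.29). Over the 4 scalings the net change was -0.43 to 0.73 for PORCN, -0.73 to 0.45 for ZFP36L1, -0.46 to 0.70 for HERPUD1 and -0.41 to 0.70 for PTPMT1, so the direction of each turned with the scaling. In 5 of these 6 genes D11 libraries overlapped the monolayers, and SNAI2 was the exception.

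Among genes back after a rise, SECTM1, a secreted and transmembrane protein of epithelia, lay at 1.3 to 2.8 TPM (median 2.3) in monolayers, 10.4 to 15.1 TPM (median 12) at D3 and 1.4 to 2.9 TPM (median 1.9) at D11. Its D3 change was 2.09 (adjusted p = 8.1e-17) and its net change -0.094 ± 0.1 (adjusted p = 0.4), with a 95% interval of -0.31 to 0.12. Every D3 library of SECTM1 lay above every library of the other 2 groups. TNFRSF21, death receptor 6, lay at 24.1 to 27.3 TPM (median 26) in monolayers, 55.1 to 111 TPM (median 97.4) at D3 and 22.7 to 36.7 TPM (median 35.9) at D11. TNFRSF21 changed by 1.67 at D3 and by 0.26 ± 0.068 at D11 (adjusted p = 0.0017), and -0.30 with mitochondrial genes removed. DLK2, a relative of the Notch ligands, lay at 11.7 to 24.9 TPM (median 17.6) in monolayers, 39.1 to 65.6 TPM (median 49.2) at D3 and 14.6 to 18.9 TPM (median 15.9) at D11. DLK2 changed by 1.51 at D3 and by -0.071 ± 0.12 at D11 (adjusted p = 0.58). APOL1 lay at 12.1 to 18.5 TPM (median 15.9) in monolayers, 24 to 73.9 TPM (median 61.1) at D3 and 13.6 to 20.4 TPM (median 16.3) at D11. APOL1 changed by 1.48 at D3 and by 0.06 ± 0.063 at D11 (adjusted p = 0.38). The glucocorticoid-induced chaperone partner FKBP5 lay at 7.9 to 11.8 TPM (median 9.55) in monolayers, 26.3 to 31.9 TPM (median 28.7) at D3 and 8.7 to 12.8 TPM (median 11.6) at D11. FKBP5 changed by 1.47 at D3 and by 0.16 ± 0.1 at D11 (adjusted p = 0.15). CCDC88B lay at 6.2 to 9.3 TPM (median 8.2) in monolayers, 14.6 to 25.2 TPM (median 20.3) at D3 and 7.5 to 13.4 TPM (median 8.6) at D11. CCDC88B changed by 1.25 at D3 and by 0.22 ± 0.091 at D11 (adjusted p = 0.036), and its net call was lost without any 1 of monolayer libraries 1, 2, 7 or 10 or D11 libraries 1, 4 or 5 (0.14 to 0.21). Over the 4 scalings the net changes were -0.54 to 0.34 for SECTM1, -0.62 to 0.50 for DLK2, -0.49 to 0.63 for APOL1 and -0.38 to 0.71 for FKBP5, so each changed sign. Staying within 2-fold under all 4 scalings was a condition for naming these genes.

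Returning genes were found in several lists as deposited. Of 26 immediate early and AP-1 genes 6 were back after a fall (IER2, IER3, DUSP5, KLF2, KLF6 and MAFF), of 29 unfolded protein and integrated stress response genes 5 (PPP1R15A, XBP1, DNAJC3, HERPUD1 and SEL1L), and of 28 wound-edge genes 5 (ITGA5, PLAUR, SNAI2 and PTHLH among them). Of 23 interferon-stimulated genes 4 were back (IFI6, ISG20, IRF7 and IRF9) and of 29 YAP and SRF targets 3 (AMOTL2 and NUAK2 among them), against 3.04% of all genes. Of 24 Notch pathway genes 3 were back. The counts moved with the scaling: after the median of ratios 2 immediate early genes, 0 YAP and SRF targets, 0 Notch pathway genes and 11 of 71 nuclear respiratory chain genes were back. In the same order, quantile normalization gave 7, 1, 0 and 11, and removal of mitochondrial genes gave 6, 2, 1 and 2. The names in this paragraph follow from the class, not from the rule for named genes. Of them, only SNAI2, HERPUD1 and ISG20 were back under all 4 scalings. No cornified envelope, mitosis or DNA replication gene of those tested was back.

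The size of the net change differed between the 2 experiments for 6913 genes (59.1%), and the difference reached 2-fold for 1121. The median net change of all genes was -0.42 in batch 1 and -0.60 in batch 2. An opposite sign in 1 batch was found for 7 of the 1022 genes that ended above and 5 of the 2954 that ended below. Both classes ask for a 2-fold change in a fit over both batches, which leaves little room for opposite signs. These counts therefore do not test agreement between the experiments. The largest rises and falls were named only if both batches gave the same sign. Their shared sign therefore follows from that rule and does not test agreement between the experiments. The sizes in batch 1 and batch 2 were 13.59 and 14.76 for SPRR1A, -6.79 and -6.05 for MKI67 and -7.44 and -8.58 for CSF3.

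**Figure D5:**
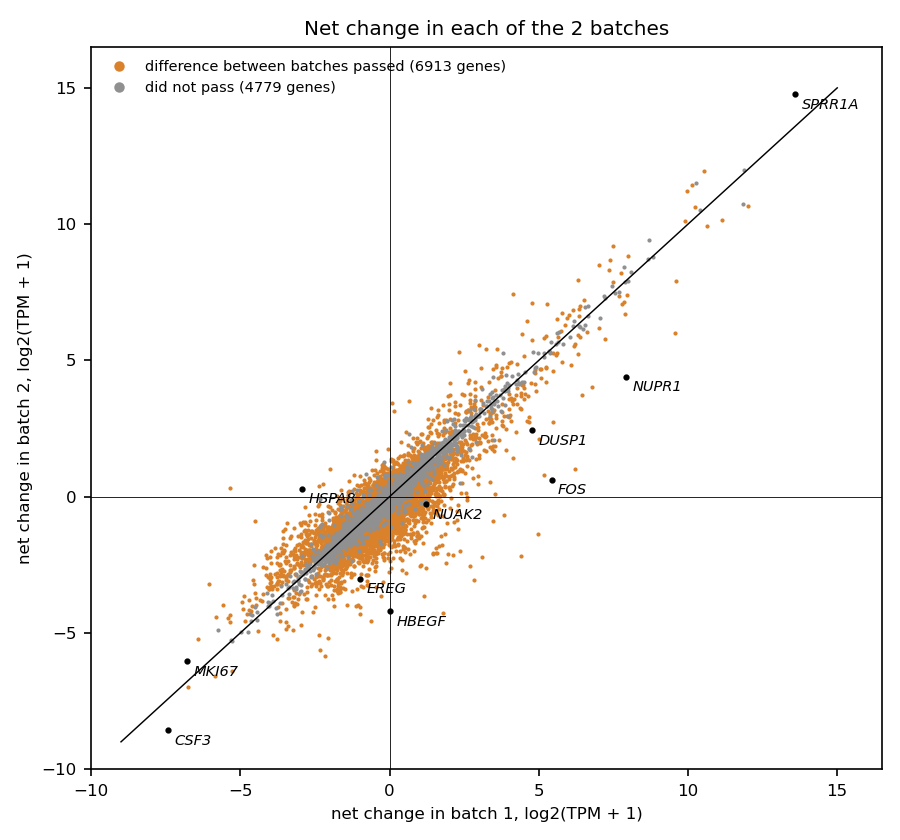
Net change of each tested gene in batch 2 (vertical axis) against batch 1 (horizontal axis), both in log2(TPM + 1), 1 point per gene, with the line of equal change. The 6913 orange points are genes whose net change differed between batches, and of the genes labelled in black, FOS, HBEGF, HSPA8 and NUPR1 lie farthest from the line.

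Genes listed as markers of other cell types are given as transcript levels, since which cells made them was not tested. All 5 tested members of the columnar, goblet and ciliated list ended below (median -2.32 as deposited and -2.89 to -1.71 under the other 3 scalings). Over all genes 66.0% were lower and 25.3% below as deposited. The tested members included the simple keratins KRT8, KRT18 and KRT19. The falls were led by SPDEF, a goblet cell factor, at 3.8 to 11 TPM (median 6.4) in monolayers and 0 to 0.2 TPM (median 0.1) at D11. SPDEF did not overlap between monolayers and D11 and changed by -2.75 ± 0.14 (adjusted p = 2.6e-12). KRT8, a simple keratin, lay at 29.4 to 47.2 TPM (median 35.4) in monolayers, 15.9 to 21.4 TPM (median 19.2) at D3 and 5.2 to 7 TPM (median 6.2) at D11. KRT8 stood lower in each D11 library than in each monolayer and changed by -2.40 ± 0.058 (adjusted p = 1.6e-16). The summed level of that list, which the simple keratins KRT19 and KRT18 dominate, was 2075 to 4036 TPM in monolayers and 759 to 1015 TPM at D11. Of the immune and endothelial list all 3 tested members, CD14, CD68 and CSF1R, rose (median 1.23 as deposited and 0.66 to 1.83 under the other 3 scalings). CD14, a receptor for bacterial lipopolysaccharide, lay at 0.3 to 5.1 TPM (median 2.05) in monolayers, 23.3 to 39.3 TPM (median 30.4) at D3 and 10 to 58.8 TPM (median 38.8) at D11. CD14 was higher in all 7 D11 libraries than in any monolayer and changed by 3.31 ± 0.19 (adjusted p = 2.6e-11). CD68, a lysosomal protein also made by epithelia, lay at 148 to 249 TPM (median 185) in monolayers, 110.5 to 176 TPM (median 145) at D3 and 399 to 480.1 TPM (median 426) at D11. CD68 did not overlap between monolayers and D11 and changed by 1.23 ± 0.08 (adjusted p = 1.2e-10). The summed level of that list was 196 to 285 TPM in monolayers and 522 to 588 TPM at D11, with 9 and 7 of 18 members listed at 0 in every library. Of the melanocyte and neural crest list PMEL rose as deposited by 0.39 ± 0.082, at 0.4 to 1.5 TPM (median 0.85) in monolayers and 1.1 to 1.7 TPM (median 1.5) at D11. With mitochondrial genes removed its change was 0.12 and the call was lost (adjusted p = 0.35). The summed level of that list was 1.6 to 10.6 TPM in monolayers and 1.7 to 2.8 TPM at D11.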

How the data were processed

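RNA was measured by sequencing in EPC2 monolayers and spheroids. The deposited table holds TPM values, a length-normalised unit, computed by the authors. Per the submitters' processing notes, reads were placed on hg38. How reads were aligned and quantified, and the read depth, were not given in the sources used here, so the precision is known only from the spread between libraries. Of 32 columns, 26 were used. The 6 columns with IL-13 could not be matched to single samples and were not used.

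Genes at 1 TPM or more in 7 or more of the 17 monolayer and D11 libraries were tested on log2(TPM + 1) with limma 3.58.1 in R 4.3.3. The model held group and batch, a trended prior and Benjamini-Hochberg adjustment at 0.05. A fit with the interaction of group and batch tested the difference between experiments, and a fit of all 26 libraries gave the change at D3. The D3 libraries stayed out of the first fit because they vary more. Scripts were tested on simulated data. The members and the 30 gene lists were chosen with earlier results of these data known, and no list was tested as a set.

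Named genes were the 10 largest rises and 10 largest falls that reached 2-fold under all 4 scalings with 1 sign in both batches and a median of 10 TPM or more, the 6 largest D3 falls and 6 largest D3 rises among genes back under all 4 scalings, in each list the 2 top rises and 2 top falls past the threshold, and genes chosen by hand. Genes listed at 0 in all libraries of a group are given without a fold. The 4 scalings were the values as deposited, the median of ratios, quantile normalization and removal of the mitochondrially encoded genes. Other alternatives were the pseudocount, the filter, the batch term, each batch alone, a replicate block, library weights, the prior variance, the limits of the classes and leaving out each library. Replicate numbers did not pair the samples. Gene positions are from GENCODE release 29 and promoter sequences from RefSeq (GRCh38.p14), matched by symbol. Figures were drawn with matplotlib 3.10.9 in Python 3.11.15. A few genes of the lists are not reported by name here.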

Additional observations from a re-analysis of the deposited data

Results flagged for a closer look

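In 8 of 254 gene and group pairs examined (3.15%), 1 library stood apart from the rest of its group. The rule is set to flag about 1 in 20 by chance where all libraries are of 1 kind. Each group here pools 2 batches, which lay apart for genes such as HSPA8 and so widened the range. The share flagged can therefore not be compared with that rate. SPRR1A reached 5.3 TPM in monolayer library 5, with the next monolayer at 2.4 TPM, and LCE3D reached 3.3 TPM in monolayer library 9, with the next at 1.2 TPM. CLDN17 was at 1.0 TPM in monolayer library 2, with the next at 0.5 TPM, and HSPB1 at 1461.9 TPM in monolayer library 6, with the next at 1227.3 TPM. Among D11 libraries, HASPIN was at 2.5 TPM in library 3, with the next at 0.8 TPM, and CCDC88B at 13.4 TPM in library 4, with the next at 9.5 TPM. The low values were 22.9 TPM of THBS1 in D11 library 1, with the next at 27.4 TPM, and 35.3 TPM of FGFR3 in D11 library 7, with the next at 43.0 TPM. Each flagged value lay in another library.

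The net change of 94 of 138 named genes tested differed between the 2 batches, and 7 of them by 2 or more on the log2 scale or with opposite signs and a change of 1 or more. The difference, batch 2 minus batch 1, was -4.82 for FOS, which rose by 5.43 in batch 1 and stood at 0.61 in batch 2. It was -4.22 for HBEGF, -3.53 for NUPR1 (7.93 and 4.40), -2.33 for DUSP1 (4.78 and 2.44) and -2.02 for EREG (-0.99 and -3.02). It was 3.22 for HSPA8 (-2.93 and 0.29) and -1.51 for NUAK2 (1.22 and -0.29). HBEGF, HSPA8 and NUAK2 had opposite signs in the batches.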

How the results depend on the processing

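As deposited, 2430 genes were higher and 7722 lower, 1022 ended above, 2954 below and 6585 level, and 355 were back. Scaling by the median of ratios gave 4780 higher, 4865 lower, 1729 above, 1328 below and 225 back. Quantile normalization gave 4209 higher and 1606 below, and removal of mitochondrial genes gave 1347 higher, 6030 below, 3588 level and 198 back. A pseudocount of 5 gave 1430 below and 165 back. Without a filter 11716 genes were level, and with a filter of 5 TPM 4243, since more or fewer genes were tested. Library weights gave 588 back. An interval within 1.5-fold gave 3377 level and 136 back, and a D3 change of 4-fold or more 16 back. Apart from the scalings as said, the cause of these shifts was not tested.

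Of 138 named genes, 112 kept their direction and side of the threshold under every alternative run, and of the genes called as deposited 14 changed direction and 13 lost the call under at least 1. Part of this stability was built in by the choice of genes. The largest rises and falls were named only if they reached 2-fold under every scaling with the same sign in both batches. Genes named from a list were its top changes past the threshold. The count of 112 therefore describes the named genes and does not measure how stable other genes are. Among those called as deposited, direction turned under the median of ratios for SNAI2 (0.311) and ITGA6 (0.230), and under quantile normalization for TAGLN2 (-0.125) and COL17A1 (-0.016). With mitochondrial genes removed it turned for PPP1R3B (-0.223), TNFRSF21 (-0.296), CCDC88B (-0.308), CD151 (-0.091), POLA1 (-0.260), NUAK2 (-0.024), TAGLN2 (-0.218), MT1F (-0.050), SOX2 (-0.287) and COL17A1 (-0.329). In batch 1 alone it turned for HBEGF (0.009) and SOX2 (-0.022), and in batch 2 alone for NUAK2 (-0.289) and HSPA8 (0.291). Of the genes not called as deposited 9 also changed sign under a scaling (ZFP36L1, SECTM1, DLK2, NOTCH1, PTPMT1, PORCN, HERPUD1, APOL1 and FKBP5). The cause was not tested.

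Leaving out each library in turn gave 2372 to 2461 genes higher, 7605 to 7753 lower, 1011 to 1036 above, 2872 to 2990 below, 6474 to 6654 level and 325 to 381 back. The call of ZFP36L1 was gained without D11 library 3 (-0.197), that of PTPMT1 without D11 library 4 (0.237), that of FKBP5 without D11 library 7 (0.223), and that of NOTCH1 without any 1 of monolayer libraries 1 or 7 or D11 libraries 1 or 2 (-0.174 to -0.153). A replicate block in place of the batch term gave 2315 higher, 7333 lower, 1054 above, 2977 below, 6142 level and 333 back. The numbers do not pair the samples, since samples of 1 number correlated at -0.013 to 0.06 and only number 6 correlated best with its own. The call of POLA1 (0.139), PTTG1 (0.479), HBEGF (-1.452) and SOX2 (0.122) was lost with the block. TPM on 1 decimal without depth limits what can be said of genes under 1 TPM.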
